A study of Homo sapiens with 9 samples.

Results

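The comparison was between IGROV-1/Pt1 (Pt1), a cisplatin-resistant human ovarian carcinoma line, and the parental IGROV-1 line from which it had been derived by exposure to cisplatin. Total RNA from 3 samples of each line was hybridized to Illumina bead arrays, so that 6 of the 9 arrays of the series entered the comparison. The submitters describe the 3 samples of a line as independent biological replicates. The members are all genes that the array names, with the probe of highest mean log2 intensity standing for a gene that has several, which gave 18852 genes. No treatment or drug exposure at harvest is given for either group, and the cells were taken in exponential growth. Pt1 is a single resistant line, so its 3 arrays measure the spread between samples of that line and not between separately derived resistant lines. The remaining 3 arrays are of a second resistant line, IGROV-1/OHP (OHP), which the sample labels call oxaliplatin-resistant and the design text derives with cisplatin. They entered the choice of probes, the background limit and some alternative fits.

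Cisplatin kills cells by binding to DNA bases and linking them, mostly within a strand, which blocks replication and transcription. Cells kept in the drug can come to survive it through lower uptake, binding to thiols, repair or tolerance of the lesions, and altered death signalling, and long selection also fixes changes that have no part in survival. IGROV-1 is an established line from an ovarian carcinoma, a tumour whose cells usually carry the transcription factors of the Müllerian duct and a keratin and cadherin skeleton of epithelial type.

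Values are the deposited intensities, a linear scale in arbitrary units, and they are read between arrays for one gene and not between genes. Fold changes are log2 differences, Pt1 minus parental, with the standard error (SE) from a limma fit with 3 arrays a line. A gene was called where the Benjamini-Hochberg adjusted p over all 18852 genes was under 0.05. Intensities at or under 302.2, a level that 2.5% of the intensities of 431 olfactory receptor probes exceeded, were treated as background. Where all 3 arrays of the dimmer line read background, the fold is given as a lower bound, taken from the deposited intensities, and where some but not all of them did, the fitted value is partly one of background. The arrays of a line correlated across genes at 0.993 to 0.994 in Pt1 and 0.987 to 0.99 in the parental line, against 0.946 to 0.963 between the lines. Between 10315 and 10516 genes lay above background on each of the 6 arrays. Precision is limited by the small number of arrays, and in bulk RNA fewer cells of a kind and less RNA per cell cannot be told apart.

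The markers of the labelled tissue were in part present in both lines. PAX8, a transcription factor of Müllerian epithelium, read 12769.8, 11756 and 13453 on the Pt1 arrays and 12801, 19102 and 13049 on the parental arrays, and differed by -0.22 ± 0.18 (adjusted p = 0.444, not passed). SOX17, a factor of the same epithelium, read 6423, 7508 and 7886 against 5440.3, 5338 and 6915, and differed by 0.31 ± 0.17 (adjusted p = 0.209, not passed). Neither was called in the chosen probe, and both were far above background on every array. The other 2 probes of PAX8, dimmer but above background on every array, were called in opposite directions, at -0.99 and 0.98. WT1, EMX2, ESR1 and CLDN4 were at background on all 6 arrays. Of 19 measured markers of Müllerian and ovarian carcinoma epithelium, 4 were higher in Pt1, 7 were lower and 8 did not pass, and their summed intensity was 85218 to 95080 in Pt1 and 150760 to 177750 in parental cells. The median log2 fold change of the list was -0.07, and its bright members that fell include KRT19, EPCAM and FOLR1. The 4 that rose were MSLN (5.81), KRT18 (2.77), KRT8 (1.45) and ELF3 (0.60), and 3 members were higher over 9 arrays. FOLR1 is the folate receptor of many ovarian carcinomas. FOLR1 read 1387, 1978 and 2257 on the Pt1 arrays and 12158, 20129 and 15271 on the parental arrays, and fell by 3.15 ± 0.23 (adjusted p = 7.51e-07). Markers of other cell types were mostly at background. Of 11 leucocyte markers, 0 to 1 lay above it in a Pt1 sample and 1 to 2 in a parental sample, with PTPRC, CD3E and CD79A at background throughout. Of 10 fibroblast markers, 2 lay above it on every array (PDGFRA and THY1), and COL1A2, COL3A1 and DCN were at background throughout. Of 9 endothelial markers, 3 to 4 lay above it in Pt1 and 3 in parental cells, and 3 were called higher in Pt1, with PECAM1 at 472, 438 and 483 against 352, 314 and 326 and PECAM1 (adjusted p = 0.122) not called over 9 arrays. Of 8 erythroid markers HBA2 alone lay above it, on the 3 parental arrays. The mesothelial list, which shares MSLN with the Müllerian list, summed to 14315 to 16104 in Pt1 and 2122 to 2469 in parental cells. Of its 8 measured members MSLN and LRRN4 were higher, DES was lower and 5 did not pass.

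More genes were lower than higher in Pt1, and most changes were small. Of 18852 genes, 4882 (25.9%) were called, 2228 (11.8%) higher and 2654 (14.1%) lower in Pt1. Of the higher genes 850 (4.51% of all genes) and of the lower genes 980 (5.2% of all genes) differed at least 2-fold. By size, 1378 of the higher genes and 1674 of the lower genes changed by less than 1 on the log2 scale, 668 and 747 by 1 to 2, 119 and 157 by 2 to 3, and 63 and 76 by 3 or more. The median log2 fold change over all genes was -0.02, and the median size of change was 0.25 over all genes and 0.85 over called genes. Calls were more frequent among the 10575 genes above background on all 3 arrays of a line, where 42.5% were called, 19.6% higher and 22.9% lower. Every count of list members below is to be read against these shares, and a count near them is no trait of the list. In 241 higher genes and 304 lower genes the change ran from background on all 3 arrays of one line to above background on all 3 of the other. Of the calls, 77 higher and 109 lower concerned genes at background on all 6 arrays, and no fold is given for these. The arrays of the lines did not overlap for 7434 genes (39.4%), which held 4822 of the called and 2612 of the other genes. When the spread was pooled over all 9 arrays, OHP included, 783 genes were higher and 1080 lower, and without OHP array 2, which stood apart from the other OHP arrays, 2220 and 2657. Parental array 2 was the lowest parental array for 55.2% of the 2069 higher genes above background and for 30.8% of the 6080 such genes not called. It was the highest for 57.5% of the 2426 lower genes above background, against 43.9% of those not called. Array 3 went the other way, highest for 52.3% of the higher genes and lowest for 53.3% of the lower genes. With OHP array 2, parental array 2 correlated at 0.96, against 0.94 and 0.93 for parental arrays 1 and 3. The part of parental array 2 in the calls was not tested beyond leaving it out, which gave 2057 higher and 2331 lower genes.

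**Figure D1:**
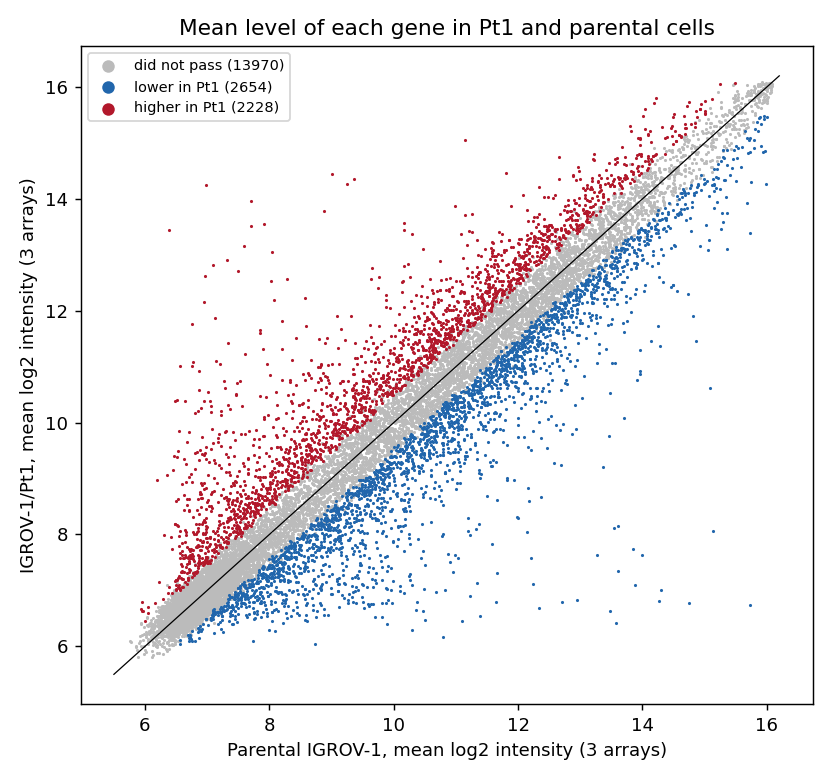
Each point is 1 of 18852 genes, with the mean log2 intensity of the 3 parental arrays on the horizontal axis and of the 3 Pt1 arrays on the vertical axis, and the line marks equal levels. The 2228 red genes above the line were higher in Pt1 and the 2654 blue genes below it were lower.

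The largest rise of all was in FAM107A, an actin-associated protein of the nervous system, which was at least 65-fold higher in Pt1 (adjusted p = 4.98e-11). Further down, the 30 largest rises held transcription factors, a receptor, metabolic enzymes and a chromatin remodeller. EMP1 encodes a membrane protein of epithelial cells. EMP1 read 18041, 20993 and 20321 on the Pt1 arrays and 824, 754 and 563 on the parental arrays, and rose by 5.02 ± 0.18 (adjusted p = 1.88e-09). Its lowest Pt1 array lay far above its highest parental array. NFIB is a transcription factor of the nuclear factor I family. NFIB read 8431, 8623 and 8828 on the Pt1 arrays and 384, 364 and 332 on the parental arrays, and rose by 5.02 ± 0.15 (adjusted p = 3.46e-10), with little spread in either line. SGCE, the imprinted epsilon-sarcoglycan, went the same way. SGCE read 15104, 14323 and 13098 on the Pt1 arrays and 721, 478 and 533 on the parental arrays, and rose by 4.90 ± 0.19 (adjusted p = 3.00e-09). CALCRL is the shared receptor for adrenomedullin and calcitonin gene-related peptide. CALCRL read 5286, 2624 and 4072 on the Pt1 arrays and 249, 228 and 233 on the parental arrays, and was at least 12.7-fold higher in Pt1 (adjusted p = 2.26e-08). All 3 parental arrays were at background.

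Enzymes and ion channel genes also stood among the largest rises. ALDH2, which oxidizes acetaldehyde in mitochondria, was near background in parental cells. ALDH2 read 6532, 6569.6 and 5117 on the Pt1 arrays and 376, 401 and 302 on the parental arrays, and rose by 4.51 ± 0.19 (adjusted p = 5.09e-09). PGM1, which moves phosphate on glucose between glycogen and glycolysis, was above background in both lines. PGM1 read 38141, 29207 and 35324 on the Pt1 arrays and 2820, 1284 and 3700 on the parental arrays, and rose by 3.90 ± 0.32 (adjusted p = 2.25e-06), although parental array 2 was the lowest of its line. KCNS3, a silent subunit that modifies voltage-gated potassium channels, read 6375, 6256 and 5933 on the Pt1 arrays and 311, 450.1 and 498 on the parental arrays, and rose by 4.29 ± 0.21 (adjusted p = 3.11e-08). SMARCA2 (BRM), one of the alternative ATPases of the SWI/SNF chromatin remodelling complex, was absent above background from parental cells. SMARCA2 read 2261, 2008 and 2593 on the Pt1 arrays and 188, 222 and 209.9 on the parental arrays, and was at least 7.53-fold higher in Pt1 (adjusted p = 4.13e-09). Another SMARCA2 probe, at background, gave 0.08 with no call. ARHGDIB was at least 4.84-fold higher in Pt1 (adjusted p = 3.99e-06), but its Pt1 arrays were spread widely, at 855, 2221 and 1642. Other genes of this rank that went from background to measured levels were CRIP1 and NTN1, a netrin that guides axons, with bounds of 9.37-fold and 7.62-fold, and the neuropeptide precursor NTS, with a bound of 7.18-fold. Another probe of NTN1 gave 0.31 and another of NTS gave -0.01, both at background with no call.

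The largest fall of all was in HBA2, an alpha globin, which was at least 179-fold lower in Pt1 (adjusted p = 1.04e-11). Further down, the 30 largest falls took in adhesion molecules, matrix and gap junction genes, secreted peptides and an enzyme of arginine synthesis. CDH17, the cadherin of liver and intestine, was close to background in Pt1. CDH17 read 271, 304 and 311 on the Pt1 arrays and 9198, 8422 and 12788 on the parental arrays, and fell by 5.64 ± 0.18 (adjusted p = 7.53e-10). CCN3, a matrix-associated regulator also called NOV, was at background there. CCN3 read 224, 210 and 191 on the Pt1 arrays and 7811, 4711 and 8504 on the parental arrays, and was at least 22.5-fold lower in Pt1 (adjusted p = 2.48e-09). RELN, the secreted glycoprotein reelin, read 239.8, 229 and 238 on the Pt1 arrays and 5808, 4353 and 4772 on the parental arrays, and was at least 16.4-fold lower in Pt1 (adjusted p = 5.23e-10). GJA1 (connexin 43), which forms gap junctions between neighbouring cells, was at least 6.22-fold lower in Pt1 (adjusted p = 5.92e-08), and GAL, the peptide galanin, was at least 7.58-fold lower in Pt1 (adjusted p = 7.60e-10). For CCN3, RELN, GJA1 and GAL every Pt1 array lay at background.

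Among the other falls, some genes stayed measurable in Pt1 and some did not. ASS1 joins citrulline and aspartate in the step that limits arginine synthesis. ASS1 read 595, 701 and 769.8 on the Pt1 arrays and 10802, 9954 and 11112 on the parental arrays, and fell by 4.16 ± 0.16 (adjusted p = 3.00e-09). The Pt1 arrays were close together and so were the parental arrays, with a wide gap between the lines. SEMA6A, a membrane semaphorin, kept a measurable level too. SEMA6A read 1928, 1374 and 1766 on the Pt1 arrays and 37985, 38498 and 29369 on the parental arrays, and fell by 4.47 ± 0.18 (adjusted p = 4.74e-09). APOM, an apolipoprotein that carries sphingosine-1-phosphate, fell by 5.46 ± 0.20 (adjusted p = 1.88e-09). DPP4 (CD26), a surface peptidase, was at least 10.9-fold lower in Pt1 (adjusted p = 4.64e-09), and CA12, a carbonic anhydrase of the outer membrane face, was at least 16-fold lower in Pt1 (adjusted p = 3.00e-09). Both read background on all 3 Pt1 arrays.

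**Figure D2:**
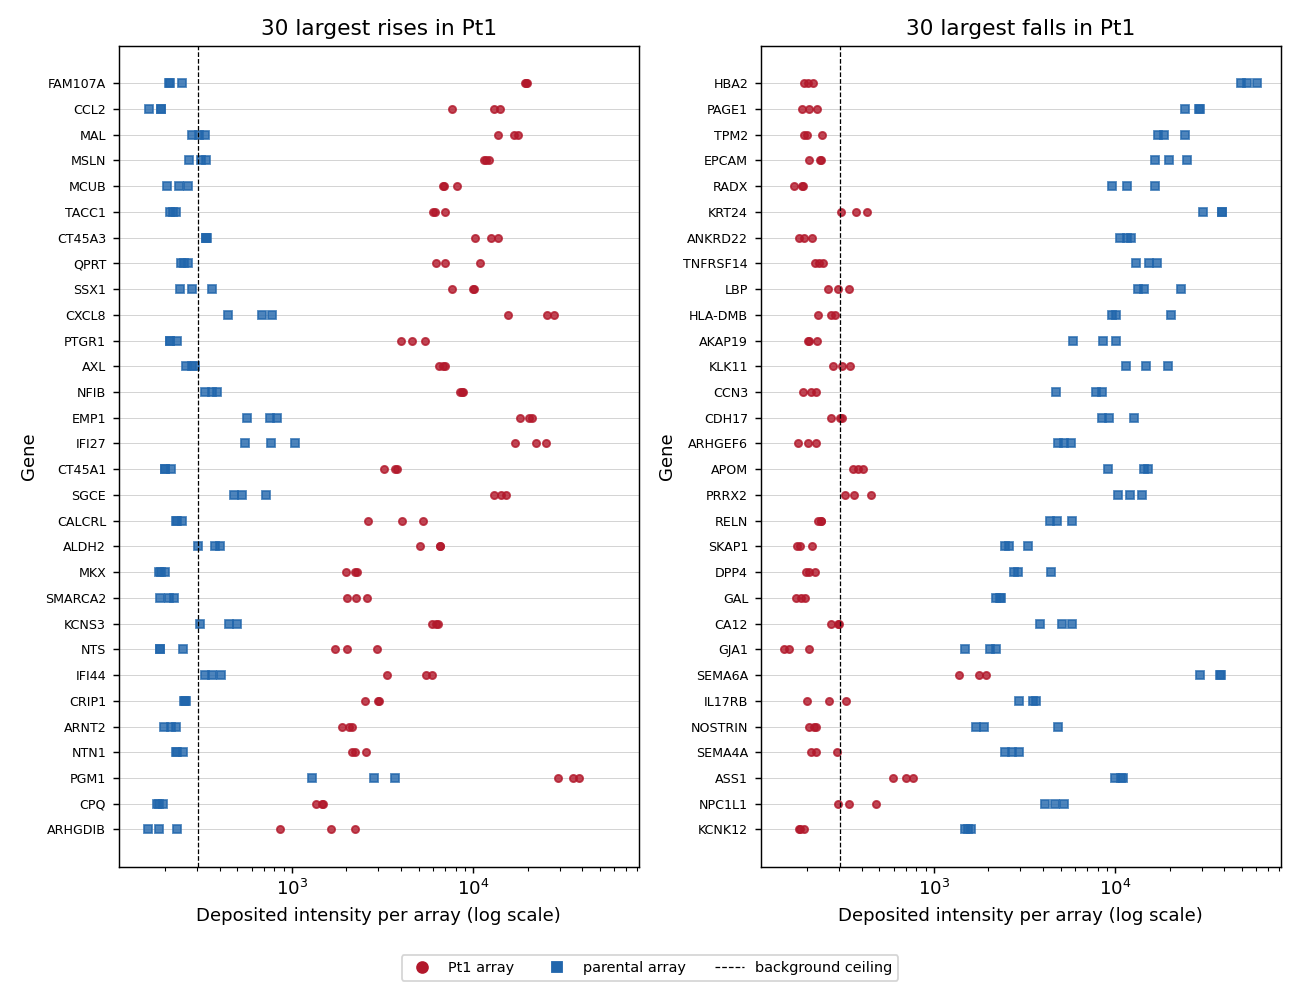
Deposited intensity on each array, on a log scale, for the 30 largest rises (left) and the 30 largest falls (right), with red circles for Pt1 arrays, blue squares for parental arrays and a dashed line at the background ceiling of 302.2. In both panels the arrays of a line lie in separate clusters for every gene shown, and the low line of most genes lies at or near the ceiling.

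Changes were modest among the called genes of at least 2-fold that had the highest mean intensity over both lines. A gene bright in only 1 line has a lower mean, so this ranking favours small changes. ANXA1 (annexin A1), which binds phospholipids in the presence of calcium, read 55868, 55644 and 50839 on the Pt1 arrays and 21667, 21113 and 14566 on the parental arrays, and rose by 1.53 ± 0.18 (adjusted p = 5.41e-05). HSPA8, the constitutive heat shock cognate chaperone, read 54879, 55047 and 62429 against 12759, 13626 and 39985, and rose by 1.59 ± 0.34 (adjusted p = 0.00418). B2M, the light chain of class I antigen receptors, read 41922, 42420 and 38043 against 16948, 6964 and 25043, and rose by 1.51 ± 0.35 (adjusted p = 0.0064). Another B2M probe, bright on every array, rose by 0.50 (adjusted p = 0.038). In HSPA8 and B2M the parental arrays differed among themselves by several fold, and without parental array 2 the change of B2M was 0.99. The same holds for LAPTM4B, a lysosomal membrane protein. LAPTM4B read 48647, 48359 and 43971 on the Pt1 arrays and 26085, 12858 and 38043 on the parental arrays, and rose by 1.01 ± 0.30 (adjusted p = 0.0265), and its call ended without any one of the Pt1 arrays (adjusted p up to 0.085) and its change was 0.58 without parental array 2. When the spread was pooled over 9 arrays the calls ended for HSPA8 (adjusted p = 0.138), B2M (adjusted p = 0.358) and LAPTM4B (adjusted p = 0.548).

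CD44, the hyaluronan receptor, was among the high-intensity genes that fell. CD44 read 13318, 18368 and 15920.2 on the Pt1 arrays and 56843, 52965 and 48756 on the parental arrays, and fell by 1.75 ± 0.17 (adjusted p = 8.14e-06). KRT19, a simple epithelial keratin, read 31419.9, 27546 and 30202 on the Pt1 arrays and 62904, 66708 and 63879.5 on the parental arrays, and fell by 1.12 ± 0.15 (adjusted p = 0.00012). GPX1, the glutathione peroxidase of the cytosol, read 17107, 15909.8 and 17656 against 43293, 36917 and 45752, and fell by 1.31 ± 0.15 (adjusted p = 5.14e-05). In all 3 genes the highest Pt1 array lay below the lowest parental array. UBB, one of the polyubiquitin genes, read 23789.6, 16780.2 and 19297 against 65646, 59851 and 70035, and fell by 1.72 ± 0.17 (adjusted p = 1.14e-05). The call of UBB (adjusted p = 0.0646) ended in the fit over 9 arrays.

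Most cadherin genes, which encode cell adhesion molecules, were not called. Of 23 measured cadherins and protocadherins, 5 were lower, 2 were higher and 16 did not pass (median log2 fold change -0.07 against -0.02 for all genes), and these counts were the same in the fit over 9 arrays. The lower members are 21.7% of the list, against 14.1% of all genes and 22.9% of genes above background. Only 7 of the 23 lay above background on all 3 arrays of a line. CDH1, the classical E-cadherin of epithelia, was dim in parental cells. CDH1 read 239, 267 and 233 on the Pt1 arrays and 717, 530.1 and 727 on the parental arrays, and was at least 2.16-fold lower in Pt1 (adjusted p = 9.89e-06). CDH16, the cadherin of kidney tubules, read 427, 343 and 477 on the Pt1 arrays and 3504, 5266 and 3926 on the parental arrays, and fell by 3.70 ± 0.20 (adjusted p = 8.11e-08). CDH2 (N-cadherin), which often replaces E-cadherin in mesenchymal cells, stayed near background, at 333, 297 and 349.7 against 312, 260.2 and 280.3, and differed by 0.30 ± 0.17 (adjusted p = 0.237, not passed). Of 31 claudins and tight junction genes, 6 were lower and 2 higher, or 3 and 0 in the fit over 9 arrays. CLDN7, a claudin of epithelial barriers, fell by 1.13 ± 0.15 (adjusted p = 0.00013).

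Keratins and desmosomal genes went both ways. Of 25 measured, 7 were higher, 5 were lower and 13 did not pass, with a median of 0.01. KRT18 pairs with KRT8 in the filaments of simple epithelia. KRT18 read 2188, 2519 and 2299.9 on the Pt1 arrays and 483, 330.4 and 487 on the parental arrays, and rose by 2.77 ± 0.20 (adjusted p = 8.80e-07). KRT7, a keratin of glandular and Müllerian epithelium, moved the other way. KRT7 read 762, 676 and 644 on the Pt1 arrays and 3986, 3671 and 2171 on the parental arrays, and fell by 2.36 ± 0.22 (adjusted p = 7.64e-06). PKP2, a plakophilin that anchors filaments at desmosomes, read 1901, 2027 and 1996 against 523, 400.1 and 501, and rose by 2.33 ± 0.17 (adjusted p = 7.50e-07). Each of the 3 genes kept its arrays apart between the lines. In the fit over 9 arrays 4 members were higher and 5 lower.

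Actin-binding and contractile genes were called in both directions, and the lower members include TPM2, ACTA2 and ACTN4. Of 26 measured, 8 were higher, 4 were lower and 14 did not pass (median 0.09). The called share was 46.2%, against 25.9% of all genes and 42.5% of genes above background, where 23 of the 26 lay. CALD1 (caldesmon), which sits on actin beside tropomyosin, read 1259, 2351 and 1395 on the Pt1 arrays and 375, 373 and 371 on the parental arrays, and rose by 2.44 ± 0.22 (adjusted p = 5.66e-06). TAGLN (transgelin) read 3626, 6809 and 5961 against 1035, 1958 and 915, and rose by 2.20 ± 0.30 (adjusted p = 0.000185). TPM4, a tropomyosin of non-muscle cells, read 3310.3, 2813 and 2695 against 748, 699 and 1178, and rose by 1.91 ± 0.21 (adjusted p = 3.65e-05). None of the 3 overlapped between the lines. TAGLN (adjusted p = 0.0809) and TPM4 (adjusted p = 0.0713) lost their call in the fit over 9 arrays, where 3 members were higher and 3 lower.

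Matrix genes did not move as a block. Of 31 collagens and collagen enzymes, 6 were higher, 7 were lower and 18 did not pass (median 0.07). COL6A1, a chain of the microfibrillar collagen VI, read 2178, 2202 and 2338 on the Pt1 arrays and 10187, 17247 and 10087 on the parental arrays, and fell by 2.49 ± 0.21 (adjusted p = 2.58e-06). COL7A1, the anchoring fibril collagen, read 1318, 1525 and 2186 against 6227, 9593 and 5117, and fell by 2.11 ± 0.25 (adjusted p = 5.76e-05). Both were lower on every Pt1 array than on any parental array. Of 39 matrix glycoproteins and proteoglycans, 4 were higher and 6 lower (median -0.02). VCAN, the large proteoglycan versican, read 2196, 1933 and 1756 against 369.5, 303 and 402, and rose by 2.85 ± 0.18 (adjusted p = 2.68e-07). SDC2, a syndecan that carries heparan sulfate, was at least 3.12-fold higher in Pt1 (adjusted p = 1.34e-07). SPP1 (osteopontin), a secreted ligand of integrins and CD44, was very bright in parental cells. SPP1 read 16221, 8852 and 8733 on the Pt1 arrays and 70271, 40534 and 57265 on the parental arrays, and fell by 2.35 ± 0.26 (adjusted p = 3.11e-05).

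Proteases were likewise divided. Of 30 metalloproteinases, ADAMs and TIMPs, 7 were higher and 4 lower (median 0.09), and 4 were higher without Pt1 array 1. MMP7 (matrilysin), a metalloproteinase made by epithelial cells, read 438, 565 and 469 on the Pt1 arrays and 2971, 2816 and 4415 on the parental arrays, and fell by 3.05 ± 0.20 (adjusted p = 3.79e-07). TIMP1, an inhibitor of these enzymes, read 37035, 43293 and 39546 against 21869.6, 24563 and 15728, and rose by 0.97 ± 0.18 (adjusted p = 0.00187). The lines did not overlap in either gene, and the gap was much wider for MMP7. Of 44 serine and cysteine proteases and serpins, 8 were higher and 9 lower (median -0.07). KLK10, a kallikrein-related peptidase, was at least 5.76-fold lower in Pt1 (adjusted p = 5.89e-08). Another KLK10 probe, at background, gave -0.14 with no call. CTSC (cathepsin C), which trims the ends of other proteases, read 3349, 4206 and 3038 against 24857, 19290 and 15675, and fell by 2.52 ± 0.20 (adjusted p = 1.65e-06).

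In the WNT pathway, where secreted WNT proteins act through frizzled receptors to stabilize beta-catenin, 10 of 48 measured genes were higher and 3 lower (median 0.04), and 6 were higher without Pt1 array 3. The called share was 27.1%, against 25.9% of all genes and 42.5% of genes above background, where 32 of the 48 lay. FZD4, a frizzled receptor, read 1407, 1484 and 1561 on the Pt1 arrays and 3732, 5484 and 5481 on the parental arrays, and fell by 1.77 ± 0.18 (adjusted p = 1.60e-05). CTNNB1 (beta-catenin) read 8727, 7479.6 and 6846 against 2022, 1022 and 2950.2, and rose by 2.13 ± 0.31 (adjusted p = 0.000318). Of the other 6 probes of CTNNB1, 1 was called too, with a rise of 2.11 for CTNNB1 (adjusted p = 0.000545), and 5 lay at background on every array with changes of -0.15 to 0.06 and no call. In the chosen probe CTNNB1 (adjusted p = 0.182) was not called over 9 arrays. In the Notch pathway, in which cleaved receptors switch on HES and HEY repressors, 5 of 23 genes were higher and 5 lower, with 3 higher without Pt1 array 2. HEY2 read 967, 1353 and 1284 against 339, 389 and 296, and rose by 2.17 ± 0.19 (adjusted p = 4.69e-06). HES6, an inhibitor of HES1, read 5902, 5816 and 6240 against 28833, 20063 and 15159, and fell by 1.80 ± 0.21 (adjusted p = 5.31e-05). In both genes the arrays of the lines were apart.

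Genes of the transforming growth factor beta (TGF-beta) and bone morphogenetic protein (BMP) pathway held more lower than higher members. These ligands bind paired receptor kinases that phosphorylate SMAD proteins, and inhibitory SMADs and the ID genes are common targets. Of 49 measured, 15 were lower, 8 were higher and 26 did not pass (median -0.15), or 9 and 5 in the fit over 9 arrays. The called share was 46.9%, against 25.9% of all genes and 42.5% of genes above background, where 36 of the 49 lay. Among ligands, TGFB3 read 891, 959 and 1109.8 on the Pt1 arrays and 251, 259.9 and 219 on the parental arrays, and was at least 3.25-fold higher in Pt1 (adjusted p = 3.43e-07). GDF15, a divergent member of the family induced by cell stress, read 3840, 1921 and 3336 against 32480.5, 13538 and 13557, and fell by 2.68 ± 0.34 (adjusted p = 8.98e-05). SMAD7, the inhibitory SMAD that TGF-beta induces, was at background in all parental arrays. SMAD7 read 1169.9, 1604 and 1340.2 on the Pt1 arrays and 289, 281 and 283 on the parental arrays, and was at least 4.5-fold higher in Pt1 (adjusted p = 1.45e-07). ID2, a helix-loop-helix inhibitor induced by BMP signals, moved the other way. ID2 read 1022, 996 and 1123 on the Pt1 arrays and 10598, 6659 and 6982 on the parental arrays, and fell by 3.04 ± 0.19 (adjusted p = 2.46e-07).

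Genes of the Hippo pathway, whose kinases hold the coactivators YAP1 and WWTR1 (TAZ) out of the nucleus, were called higher in 7 of 24 cases and lower in 1, the kinase gene LATS1 (median 0.17). The called share was 33.3%, against 25.9% of all genes and 42.5% of genes above background, where 15 of the 24 lay. CCN1, a secreted matrix protein and common YAP target, read 18234, 20026 and 18192 on the Pt1 arrays and 6750.2, 11437 and 8137 on the parental arrays, and rose by 1.14 ± 0.19 (adjusted p = 0.000876). CCN2, a related target, was at least 1.97-fold higher in Pt1 (adjusted p = 2.09e-05). YAP1 itself read 4446, 5085 and 6429 against 4097, 2877 and 4315, and differed by 0.52 ± 0.20 (adjusted p = 0.0805, not passed). WWTR1 read 1832, 1888 and 1914 against 958, 815 and 1217, and rose by 1.01 ± 0.18 (adjusted p = 0.00115), while NF2 (merlin), an upstream inhibitor, rose by 1.43 ± 0.20 (adjusted p = 0.000206). In the fit over 9 arrays 3 members were higher and 0 lower, and WWTR1 (adjusted p = 0.281) and NF2 (adjusted p = 0.157) lost their calls.

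Axon guidance genes, whose ligands and receptors also steer epithelial and endothelial cells, gave 12 higher and 7 lower of 42 (median 0.13), or 7 and 4 over 9 arrays. EFNA1, a membrane-anchored ligand of EPHA receptors, read 10819, 16447 and 14476 on the Pt1 arrays and 1995, 3327 and 2479 on the parental arrays, and rose by 2.48 ± 0.22 (adjusted p = 4.16e-06). SEMA4A, a membrane semaphorin, was at least 8.92-fold lower in Pt1 (adjusted p = 2.28e-08), and SEMA6A was lower as well, while NTN1 was at least 7.62-fold higher in Pt1. The named semaphorins were thus lower, and the ephrin and the netrin higher.

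In the phosphoinositide 3-kinase (PI3K) and AKT pathway, 6 of 42 genes were higher and 9 lower (median -0.20), with 5 lower without Pt1 array 1 or without Pt1 array 2. INPP4B, a phosphatase that removes a phosphate from the lipid messengers of the pathway, read 3407, 3421 and 2377 on the Pt1 arrays and 439, 460 and 423 on the parental arrays, and rose by 3.09 ± 0.18 (adjusted p = 1.08e-07). DEPTOR, an inhibitory partner of mTOR complexes, read 723, 522 and 566 against 4739.7, 3292 and 3308, and fell by 2.86 ± 0.20 (adjusted p = 6.00e-07). SGK1, a kinase related to AKT, read 4358, 5775 and 5342 against 23789.6, 27423 and 30996, and fell by 2.43 ± 0.17 (adjusted p = 6.07e-07). Another SGK1 probe, at background, gave -0.22 with no call. IGFBP6, which binds insulin-like growth factor II, was at least 2.82-fold higher in Pt1 (adjusted p = 7.53e-07). No array of one line crossed into the range of the other for these 4 genes. Among 43 genes of the TNF and TNF receptor superfamily 8 were higher and 8 lower (median -0.05), and without a single array of Pt1 array 2, Pt1 array 3 or parental array 1 the higher genes numbered 4, 4 and 5. TNF, the inflammatory cytokine, varied among the Pt1 arrays, at 2549, 3648 and 6692 against 359, 956 and 799, and rose by 2.83 ± 0.41 (adjusted p = 0.000291).

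Volume-regulated anion channels are built of LRRC8 subunits, and LRRC8A and LRRC8D are known to carry cisplatin into human cells. LRRC8D read 1642, 1453 and 1296 on the Pt1 arrays and 3182, 2336 and 2294 on the parental arrays, and fell by 0.86 ± 0.18 (adjusted p = 0.00334). LRRC8A, the subunit that every such channel needs, read 867, 831 and 936 against 652, 773 and 820.3, and differed by 0.27 ± 0.16 (adjusted p = 0.267, not passed). LRRC8C was the subunit that rose. LRRC8C read 1165, 1626 and 1339 on the Pt1 arrays and 537, 609 and 652 on the parental arrays, and rose by 1.34 ± 0.17 (adjusted p = 0.000126). LRRC8B (-0.14, adjusted p = 0.578) and LRRC8E (0.05, adjusted p = 0.868) were not called. The whole list of 20 anion channel genes had 2 higher and 3 lower (median -0.07). Of 40 potassium, sodium and calcium channels, 9 were lower and 3 higher (median -0.08), the former number including CACNA1H, a low-voltage calcium channel, which fell by 1.99 ± 0.17 (adjusted p = 2.96e-06). Of 32 carriers of amino acids, glucose and nucleosides, 7 were lower and 4 higher (median -0.04). SLC6A8, the creatine transporter, read 865, 820.5 and 874 against 5148, 5727 and 3509.7, and fell by 2.60 ± 0.19 (adjusted p = 8.75e-07). In iron and copper handling, 6 of 32 were higher and 4 lower (median -0.04), and the higher genes fell to 2 without any one of the Pt1 arrays or parental array 2, and to 3 without parental array 1. LCN2, a secreted carrier of bacterial and mammalian siderophores, read 2169, 2069.6 and 2531 against 20820.4, 6633 and 11707, and fell by 2.43 ± 0.32 (adjusted p = 0.000118).

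Enzymes of nucleotide synthesis and salvage, which supply the bases for DNA replication and repair, had a median of 0.27 with 10 of 39 higher and 2 lower. The called share was 30.8%, against 25.9% of all genes and 42.5% of genes above background, where 37 of the 39 lay. RRM2, the inducible subunit of ribonucleotide reductase, read 5004, 4104 and 4148 on the Pt1 arrays and 1056, 538 and 2079 on the parental arrays, and rose by 2.19 ± 0.39 (adjusted p = 0.00127). RRM2B, its p53-inducible relative, read 1444, 1087 and 1029 against 404, 283 and 463, and rose by 1.96 ± 0.24 (adjusted p = 7.44e-05). Another RRM2B probe, above background on every array, gave -0.25 with no call. TYMS (thymidylate synthase) read 26479, 29403 and 26723 against 11373, 10889 and 20105, and rose by 1.03 ± 0.22 (adjusted p = 0.00406). Parental array 2 was the lowest array of all 6 in each of these genes. None of them held in the fit over 9 arrays, namely RRM2 (adjusted p = 0.173), RRM2B (adjusted p = 0.103) and TYMS (adjusted p = 0.356), and 1 member of the list was higher there. A second RRM2B probe gave -0.25 with no call. The 2 lower members were not called without Pt1 array 2, Pt1 array 3 or parental array 1.

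Lipid genes were more often lower than higher. Of 43 fatty acid and glycerolipid genes, 13 were lower, 5 were higher and 25 did not pass (median -0.09), or 7 and 2 over 9 arrays. The called share was 41.9%, against 25.9% of all genes and 42.5% of genes above background, where 36 of the 43 lay. ELOVL6, which lengthens saturated fatty acids, read 8094, 4413 and 5856 on the Pt1 arrays and 1122, 1333 and 1214 on the parental arrays, and rose by 2.38 ± 0.21 (adjusted p = 4.39e-06). FABP3, a fatty acid carrier, read 630.1, 630.5 and 668 against 1666, 3811 and 3334, and fell by 2.29 ± 0.26 (adjusted p = 4.72e-05). PPARG, the nuclear receptor of lipid storage, was at least 1.69-fold lower in Pt1 (adjusted p = 7.12e-06), while its other 3 probes, at background, gave -0.50 to 0.12 with no call. Among 27 genes of prostaglandin and leukotriene metabolism, 4 were higher and 5 lower (median 0.06). PTGES, which makes prostaglandin E2, was at least 2.05-fold higher in Pt1 (adjusted p = 2.58e-06), and PTGDS, which makes prostaglandin D2, fell by 2.47 ± 0.30 (adjusted p = 7.17e-05).

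The list of enzymes that handle aldehydes, ketones and foreign compounds had a called share of 52.1%, against 25.9% of all genes and 42.5% of genes above background. Of 48 measured, 10 were higher, 15 were lower and 23 did not pass (median -0.13). The higher genes included the aldehyde dehydrogenases ALDH2, described above, and ALDH1A3, which makes retinoic acid. ALDH1A3 read 1425, 1199.8 and 1197 on the Pt1 arrays and 233, 226 and 232 on the parental arrays, and was at least 4.2-fold higher in Pt1 (adjusted p = 2.33e-08). CYP2J2, a cytochrome that forms epoxides of arachidonic acid, read 2539, 2865 and 2545 against 401, 427 and 351, and rose by 3.11 ± 0.16 (adjusted p = 3.73e-08). AKR1C3, an aldo-keto reductase of steroids and prostaglandins, read 15920.2, 13554 and 16025 against 1961, 1911 and 2567, and rose by 2.89 ± 0.17 (adjusted p = 1.32e-07). The Pt1 arrays were several fold above the parental arrays in each. Over 9 arrays the list had 6 higher and 10 lower members.

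**Figure D3:**
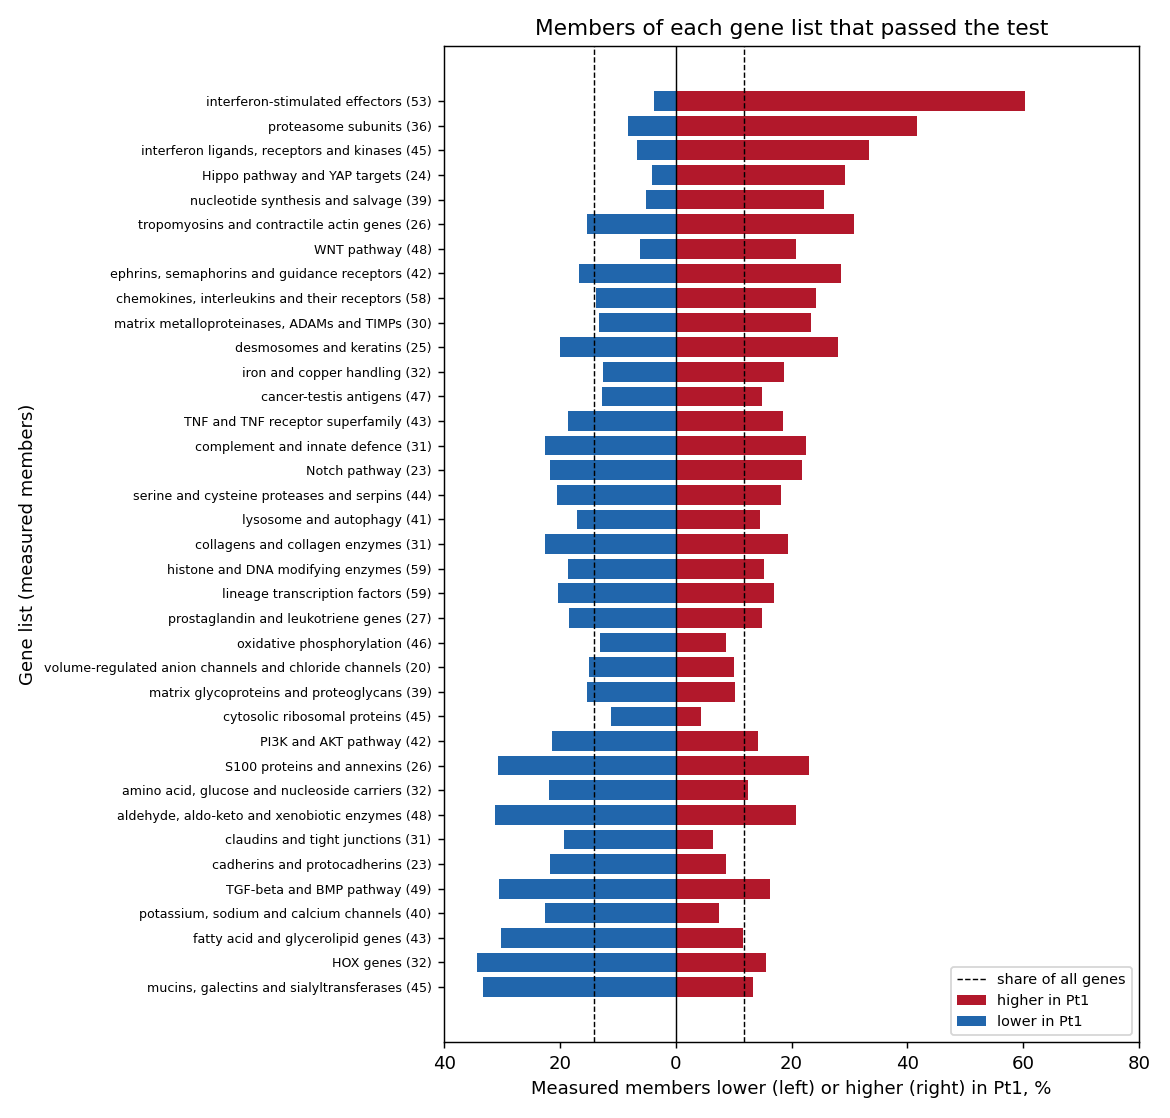
Share of the measured members of each of 37 gene lists that were higher (red, to the right) or lower (blue, to the left) in Pt1, with dashed lines at the shares of all genes, 11.8% and 14.1%. Interferon-stimulated effectors, with 32 of 53 higher, reach furthest to the right, and HOX genes, with 11 of 32 lower, furthest to the left.

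Among developmental transcription factors the HOX genes, which set position along the body axis and in the reproductive tract, had more lower than higher members. Of 32 HOX genes and their MEIS and PBX partners, 11 were lower, 5 were higher and 16 did not pass (median -0.14), and over 9 arrays 8 were lower and 4 higher. The called share was 50%, against 25.9% of all genes and 42.5% of genes above background, where 24 of the 32 lay. All 7 measured genes from HOXD1 to HOXD11 were lower. HOXD13 differed by 0.15 ± 0.16 (adjusted p = 0.564, not passed). HOXD3 read 569, 508 and 629 on the Pt1 arrays and 2137, 2001 and 1340.5 on the parental arrays, and fell by 1.85 ± 0.20 (adjusted p = 2.81e-05). HOXD11 read 530.4, 544 and 513 against 1397, 1666 and 1602, and fell by 1.75 ± 0.15 (adjusted p = 3.46e-06). HOXD9 read 462, 478 and 552 against 1208, 1267 and 1478, and fell by 1.61 ± 0.16 (adjusted p = 1.39e-05). The lowest parental array of each exceeded the highest Pt1 array by about 2-fold or more. Over 9 arrays HOXD4 (adjusted p = 0.0733) and HOXD8 (adjusted p = 0.0716) lost their calls. From another cluster HOXB6 fell by 2.37 ± 0.16 (adjusted p = 5.10e-07), while another of its probes gave -0.53 with no call. MEIS2, a cofactor of HOX proteins, went from background to a clear level. MEIS2 read 1461, 1899.8 and 1564 on the Pt1 arrays and 213, 195 and 235 on the parental arrays, and was at least 5.4-fold higher in Pt1 (adjusted p = 2.17e-08). Its other probes, at background, gave 0.02 to 0.28 with no call.

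Other lineage factors were divided, with 10 of 59 higher and 12 lower (median -0.06), or 8 and 5 over 9 arrays. TFAP2C, an AP-2 factor of placenta and gonads, was at least 6.01-fold higher in Pt1 (adjusted p = 1.12e-08). KLF2, a zinc finger factor known from endothelium and resting lymphocytes, read 10722, 10444 and 12725 on the Pt1 arrays and 985, 1641 and 1204 on the parental arrays, and rose by 3.28 ± 0.20 (adjusted p = 1.96e-07). PAX2, which acts in kidney and the Müllerian duct, read 469.7, 436 and 416 against 1046, 2068 and 913, and fell by 1.75 ± 0.27 (adjusted p = 0.000447). The call of PAX2 (adjusted p = 0.192) ended over 9 arrays, and its other probes, at background, gave -0.38 and -0.08 with no call. Of 59 histone and DNA modifying enzymes, 9 were higher and 11 lower (median 0.09), and 5 were lower without Pt1 array 1. UHRF1, which brings the maintenance methyltransferase to newly copied DNA, read 18604, 25801 and 19683 against 4547, 9242 and 6709, and rose by 1.70 ± 0.24 (adjusted p = 0.000217). KDM2B, a histone demethylase that binds unmethylated CpG islands, read 2058, 1961 and 1965 against 5236, 6993 and 5767, and fell by 1.63 ± 0.16 (adjusted p = 1.12e-05), while its other 2 probes, at background, gave -0.25 and 0.05 with no call. Cancer-testis antigens, which DNA methylation keeps silent in most tissues, gave 7 higher and 6 lower of 47 (median 0.05). CT45A1 was at least 11.8-fold higher (adjusted p = 4.66e-10), and PAGE1 was at least 91.1-fold lower in Pt1 (adjusted p = 4.98e-11).

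Interferon-stimulated genes were the list with the largest share of higher members. Interferons bind surface receptors that activate STAT transcription factors, which with IRF9 bind a response element in the promoters of antiviral genes. Of 53 interferon-stimulated effectors, 32 were higher, 2 were lower and 19 did not pass, with a median log2 fold change of 0.92 against -0.02 for all genes. The higher members numbered 26 in the fit over 9 arrays and 30 to 35 with 1 array left out. The list overlaps one already known to be higher in these arrays, so its direction is no independent evidence. IFI27, a small membrane protein, read 22274, 25148 and 16948 on the Pt1 arrays and 549, 762 and 1038 on the parental arrays, and rose by 5.0 ± 0.25 (adjusted p = 2.72e-08). IFI44 read 5481, 5949 and 3367 against 330.5, 365 and 405, and rose by 4.13 ± 0.22 (adjusted p = 5.06e-08). Not every member was called. The membrane proteins IFITM1 and IFITM3, which block virus entry, gave 10246, 7324 and 8171 against 10180, 6686 and 8133 and 61717, 60535 and 60371 against 64785, 61139.8 and 53795, and their adjusted p was 0.905 and 0.936. BST2 (tetherin), which holds virus particles at the surface, read 11917, 11982 and 12374 against 8400.1, 15236 and 8784, and differed by 0.22 ± 0.21 (adjusted p = 0.533, not passed). These members were bright in both lines and overlapped between them. The members that fell were IFI30, a lysosomal thiol reductase (fell by 1.19 ± 0.19 (adjusted p = 0.000532)), and ISG20, an exonuclease (fell by 1.81 ± 0.18 (adjusted p = 9.93e-06)), named after their values were seen.

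**Figure D4:**
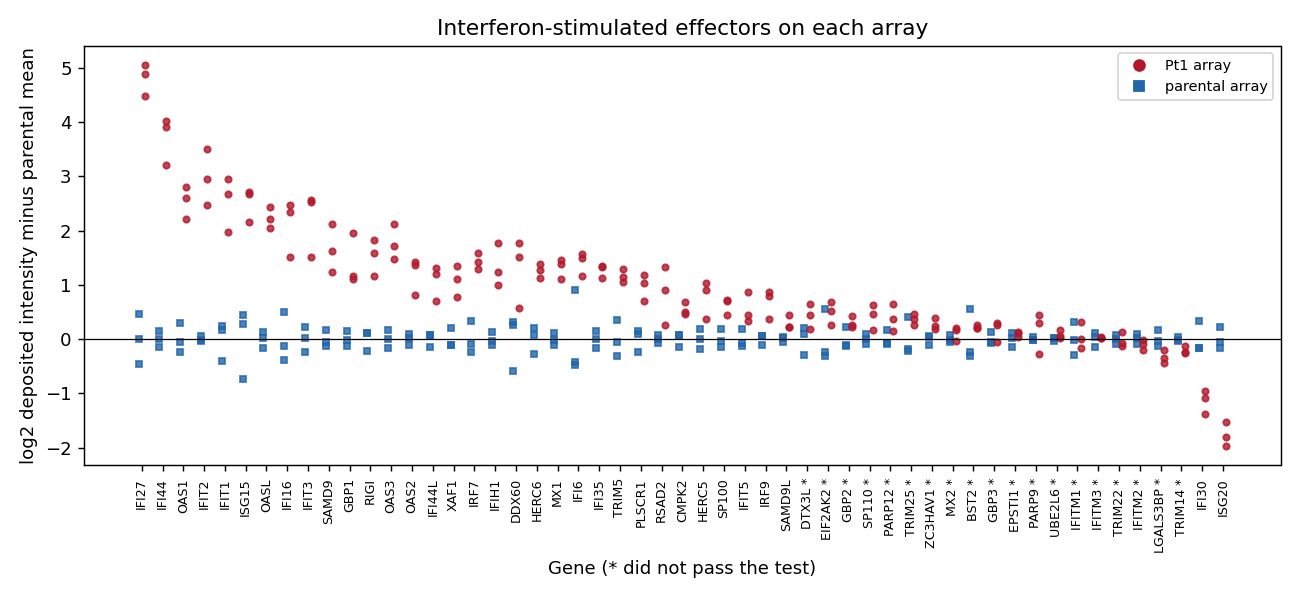
Log2 deposited intensity minus the mean of the parental arrays for each of the 53 interferon-stimulated effectors, with red circles for Pt1 arrays, blue squares for parental arrays and a star beside the name of members that were not called. The genes are ordered by fitted change, from IFI27 with the largest rise to ISG20 with the largest fall, and Pt1 and parental arrays separate clearly on the left and overlap among the starred genes.

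Genes upstream of this response were called as well. Of 45 interferon ligands, receptors, sensors and kinases, 15 were higher, 3 were lower and 27 did not pass (median 0.10), or 9 and 2 over 9 arrays. Among ligands, IFNB1 (interferon beta) was at background in parental cells and close to it in Pt1, at 286, 436 and 348 against 157, 186 and 188, and was called higher (adjusted p = 0.000169). Of its Pt1 arrays 2 lay above background, and no fold is given. IFNE, an interferon of the female reproductive tract, moved the other way. IFNE read 529.9, 472 and 457 on the Pt1 arrays and 2167, 2177 and 1289 on the parental arrays, and fell by 2.15 ± 0.21 (adjusted p = 1.30e-05). IFNLR1, the receptor chain for type III interferons, was at background on all 3 parental arrays. IFNLR1 read 1251, 1360 and 1359.6 on the Pt1 arrays and 229, 195 and 225 on the parental arrays, and was at least 4.38-fold higher in Pt1 (adjusted p = 2.50e-08). MAVS, the mitochondrial adaptor of the RNA sensors, read 806, 1025 and 1055 against 329, 408 and 392, and rose by 1.63 ± 0.18 (adjusted p = 3.01e-05), while another of its probes, at background, gave -0.13 with no call. Among 58 chemokines, interleukins and receptors, 14 were higher and 8 lower (median 0.09), with 4 lower without Pt1 array 1. CXCL10, which draws T cells, was at least 5.29-fold higher in Pt1 (adjusted p = 8.06e-07), and IL32 read 9373, 13838 and 9513 against 1411, 1621 and 1072, and rose by 3.09 ± 0.21 (adjusted p = 4.36e-07). Of 31 complement and innate defence genes 7 were higher and 7 lower. DEFB1, an epithelial defensin, read 4064, 2035 and 3041 against 21685, 26584 and 46755, and fell by 3.40 ± 0.29 (adjusted p = 3.78e-06). C3, the central complement component, was at least 2.45-fold higher in Pt1 (adjusted p = 1.56e-06), while another of its probes gave -0.02 with no call.

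The promoters of these genes were searched for the interferon response element. RefSeq promoter sequences (GRCh38.p14, 250 bases before to 50 after the gene start) matched 14820 of the genes, and the letters GAAA and GAAA parted by any 2 bases were searched on both strands, where the other strand reads TTTC and TTTC, and matches may overlap. They occur in 616 of all promoters (4.16%), in 97 of 1771 promoters of higher genes (5.48%) and in 70 of 2135 promoters of lower genes (3.28%). Of 136 genes that rose at least 4-fold, 16 hold them (11.8%), and outside the interferon list 10 of 128 (7.81%), against 6 of 170 (3.53%) among genes that fell at least 4-fold. In the same 128 genes the AP-1 element occurred in 12.5%, against 8.32% of all promoters, and the TEAD element in 18.8%, against 15.6%. The gamma-activated element gave 10.2% against 9.22%, and the antioxidant element 18.8% against 18.2%. A raised share in these genes was thus not particular to the interferon element. In the interferon list the letters of the interferon element occur in 18 of the 28 higher genes with a promoter (64.3%) and in 12 of the other 17 (70.6%), so the letters were not more frequent in the members that rose. The sequences of 4 higher genes are shown 5′ to 3′ on the strand of the gene, with the matching letters in capitals, because they carry the element at different distances from the start. IFI27 lies at chr14:94110486-94110785 on the plus strand, IFI44 at chr1:78649539-78649838 on the plus strand, IFIT1 at chr10:89392373-89392672 on the plus strand and CXCL10 at chr4:76023448-76023747 on the minus strand. IFIT1, which binds foreign RNA ends and rose by 2.64 ± 0.25, was chosen after its values were seen. Another IFIT1 probe, near background, gave 0.49 with no call.
IFI27: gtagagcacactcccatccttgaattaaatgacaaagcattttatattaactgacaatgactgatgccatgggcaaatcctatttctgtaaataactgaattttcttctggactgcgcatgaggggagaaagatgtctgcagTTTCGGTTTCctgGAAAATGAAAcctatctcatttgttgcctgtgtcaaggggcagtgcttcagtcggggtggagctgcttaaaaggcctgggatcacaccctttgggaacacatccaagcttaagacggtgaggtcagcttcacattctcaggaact
IFI44: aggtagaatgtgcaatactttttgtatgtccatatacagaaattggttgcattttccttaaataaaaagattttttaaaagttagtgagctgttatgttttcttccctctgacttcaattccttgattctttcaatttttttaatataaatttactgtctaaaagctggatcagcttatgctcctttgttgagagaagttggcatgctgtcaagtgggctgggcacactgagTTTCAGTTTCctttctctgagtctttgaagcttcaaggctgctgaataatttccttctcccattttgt
IFIT1: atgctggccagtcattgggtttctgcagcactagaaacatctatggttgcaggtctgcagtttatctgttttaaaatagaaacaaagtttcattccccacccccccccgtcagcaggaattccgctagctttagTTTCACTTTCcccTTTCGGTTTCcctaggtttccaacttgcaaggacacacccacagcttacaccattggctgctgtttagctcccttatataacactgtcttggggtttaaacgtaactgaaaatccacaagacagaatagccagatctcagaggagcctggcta
CXCL10: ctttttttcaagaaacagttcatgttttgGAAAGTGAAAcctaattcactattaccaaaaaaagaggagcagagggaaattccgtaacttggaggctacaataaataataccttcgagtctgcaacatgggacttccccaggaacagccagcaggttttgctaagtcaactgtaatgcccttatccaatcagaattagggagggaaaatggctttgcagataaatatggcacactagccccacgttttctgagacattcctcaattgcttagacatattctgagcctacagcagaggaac
The first matching base lies 18 bases before the gene start in IFI44 and 221 bases before it in CXCL10, while IFI27 has matches that begin 108 and 95 bases before the start and IFIT1 has matches that begin 116 and 103 bases before it. A match is a description of the letters and not of binding in these cells.

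Genes of mucins, galectins and glycan synthesis, which build and read the sugar coat of epithelial cells, had the lowest median of the lists, -0.37. Of 45 measured, 15 were lower, 6 were higher and 24 did not pass, or 8 and 3 over 9 arrays. The called share was 46.7%, against 25.9% of all genes and 42.5% of genes above background, where 30 of the 45 lay. ST6GAL1, which adds sialic acid to N-glycans, read 221, 252 and 257 on the Pt1 arrays and 1586, 981 and 1517 on the parental arrays, and was at least 4.41-fold lower in Pt1 (adjusted p = 4.65e-07), while its other 2 probes, at background, gave -0.30 and 0.15 with no call. LGALS4, a galectin of gut epithelium, was at least 2.96-fold lower in Pt1 (adjusted p = 8.72e-07). FUT4, a fucosyltransferase of Lewis antigens, was at least 1.99-fold higher in Pt1 (adjusted p = 4.06e-08), and GCNT1, which starts the core 2 branch of O-glycans, read 1467, 1564 and 1522 against 325, 306 and 349, and rose by 2.63 ± 0.15 (adjusted p = 9.70e-08). In each of these genes the lines did not overlap in the chosen probe, although another GCNT1 probe, at background, gave 0.37 with no call. S100 proteins and annexins, small calcium-binding proteins and membrane-binding proteins, gave 6 higher and 8 lower of 26 (median -0.01). S100A9, a partner in the inflammatory protein calprotectin, was called lower (adjusted p = 0.015). S100A9 read 187, 183 and 192 on the Pt1 arrays and 1026, 264 and 292 on the parental arrays, of which array 1 alone lay above background, and no fold is given. The call ended without Pt1 array 1 or Pt1 array 2 (adjusted p up to 0.0547) and over 9 arrays for S100A9 (adjusted p = 0.179).

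Subunits of the proteasome, which degrades ubiquitinated proteins, had the second highest median of the lists, 0.38, with 15 of 36 higher, 3 lower and 18 not passed. The called share was 50%, against 25.9% of all genes and 42.5% of genes above background, where all 36 lay. PSMB9 replaces a catalytic subunit in the immunoproteasome that interferon induces. PSMB9 read 1559.8, 1583 and 1478 on the Pt1 arrays and 251, 248 and 333 on the parental arrays, and rose by 3.03 ± 0.19 (adjusted p = 2.01e-07). Another PSMB9 probe, near background, gave 0.32 with no call. PSMD9, an assembly chaperone of the regulatory cap, read 1821, 1748 and 1858 against 773, 638 and 629, and rose by 1.56 ± 0.16 (adjusted p = 1.32e-05). PSMB2, a constitutive subunit of the core, read 36917, 36367 and 32345 against 16126, 11156 and 22832, and rose by 1.14 ± 0.23 (adjusted p = 0.00255). PSMD8, a cap subunit whose gene is on chromosome 19, read 5244, 5105 and 5383 against 10969, 13173 and 9771, and fell by 1.11 ± 0.16 (adjusted p = 0.000259). Over 9 arrays 5 members were higher and 0 lower, and PSMB2 (adjusted p = 0.231) and PSMD8 (adjusted p = 0.118) lost their calls. The lower members numbered 1 without Pt1 array 1 or Pt1 array 3.

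Against 25.9% of all genes called, the share was 15.6% for cytosolic ribosomal proteins, 21.7% for oxidative phosphorylation and 31.7% for lysosome and autophagy genes. Of 45 cytosolic ribosomal protein genes, 2 were higher, 5 were lower and 38 did not pass (median 0.01), and without Pt1 array 2 there was 1 lower. RPL28 read 700.2, 855 and 842 on the Pt1 arrays and 1453, 1683 and 1474 on the parental arrays, and fell by 1.04 ± 0.16 (adjusted p = 0.000426). Of 46 oxidative phosphorylation genes, 4 were higher and 6 lower (median 0.02), and the higher genes numbered 1 without any one of the Pt1 arrays and 8 without parental array 3. COX7A1, the heart and muscle isoform of a cytochrome oxidase subunit, was at least 2.53-fold lower in Pt1 (adjusted p = 1.50e-06), and UQCRB, a subunit of the cytochrome bc1 complex, read 7686, 9158 and 8234 against 2587, 3359.7 and 4382, and rose by 1.34 ± 0.20 (adjusted p = 0.000319). Of 41 lysosome and autophagy genes, 6 were higher and 7 lower (median -0.11), with 4 lower without Pt1 array 1 and 3 without Pt1 array 2. ATP6V1B1, a subunit of the proton pump in kidney and epididymis, read 943, 798 and 893 against 4067, 4485 and 2841, and fell by 2.22 ± 0.19 (adjusted p = 3.46e-06).

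Called genes were not spread evenly over the chromosomes. Of 1293 measured genes on chromosome 19, 395 were lower (30.5%) and 56 higher (4.33%), and their median log2 fold change was -0.20. The lower share of chromosome 19 was the highest of all, followed by chromosome 3 with 17.9%. Outside chromosome 19, 12.9% of 17559 genes were lower and 12.4% were higher, which is 2259 against 2172 genes. At the other end stood chromosome 20, with 19.7% higher and 8.8% lower. The lower genes of chromosome 19 numbered 300 to 392 with 1 array left out and 161 in the fit over 9 arrays. Along chromosome 19 the widest gap between gene starts, which holds the centromere, divides 543 genes before it from 737 after it. Before the gap 18.6% were lower and 7.0% higher with a median of -0.12, and after it 39.9% were lower and 2.44% higher with a median of -0.32. In blocks of 50 consecutive genes the median reached -0.63 at its lowest. The OHP line, compared with the same parental arrays, had medians of 0.08 before the gap and -0.14 after it. Copy number was not measured.

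**Figure D5:**
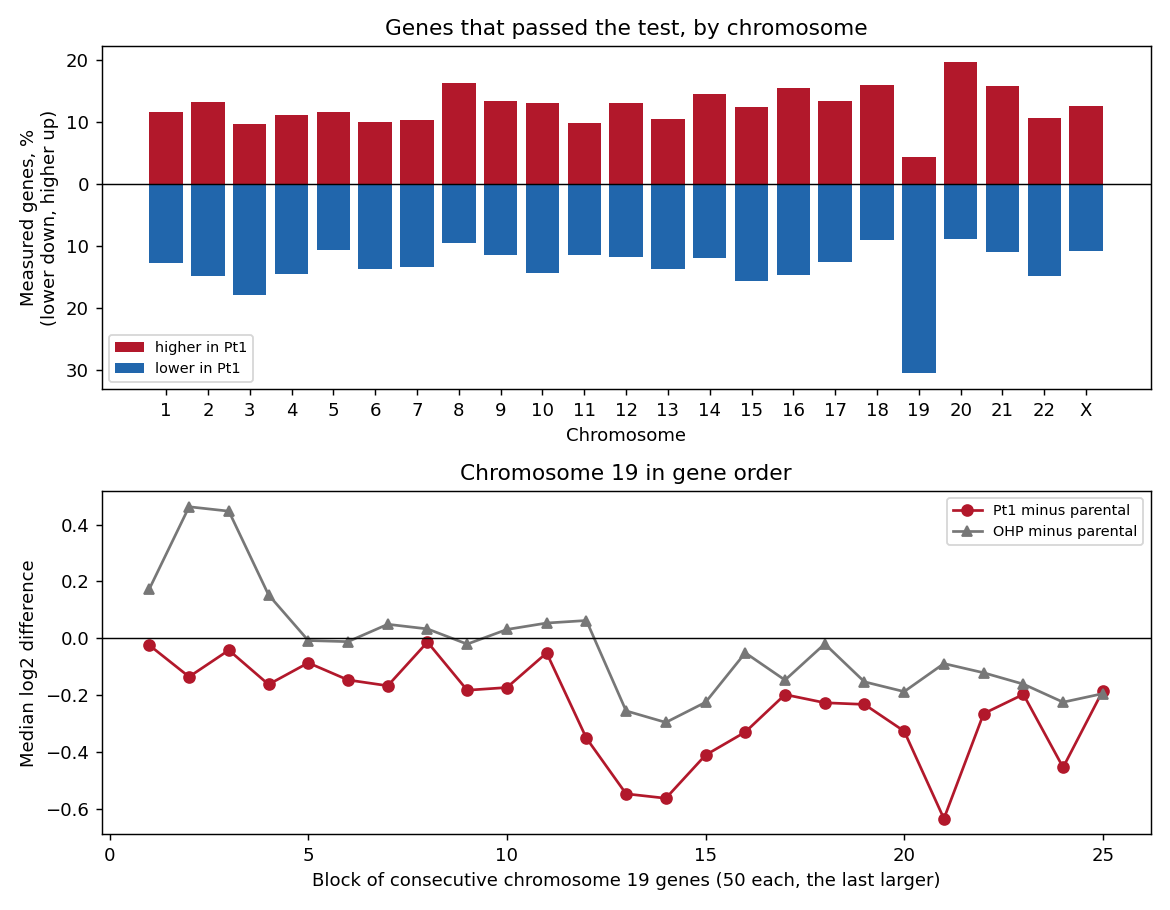
Upper panel, the percentage of measured genes higher (up) and lower (down) in Pt1 on each chromosome. Lower panel, the median log2 difference from parental cells in 25 consecutive blocks of chromosome 19 genes for Pt1 (circles) and OHP (triangles), which share the parental arrays, with every Pt1 block below 0 and the lowest at -0.63.

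Neighbouring genes were also called in the same direction in runs. By position in the reference table, 10566 genes above background in a line were ordered. They gave 95 runs of at least 4 adjacent genes all called one way, which held 506 genes. Of genes above background in a line, 42.5% were called in either direction, 19.6% higher and 22.9% lower. The runs depend on each array: with 1 array left out, 51 to 80 of the 95 still held at least 4 adjacent called genes (51 without Pt1 array 1, 53 without Pt1 array 2 and 55 without Pt1 array 3), and over 9 arrays 9 did. Of these runs 67 were lower and 28 higher, and 28 of the lower runs and 0 of the higher runs lay on chromosome 19. The longest there ran over 16 genes from RHPN2 to GRAMD1A, with changes of -1.64 to -0.46, and includes CEBPA and CEBPG, transcription factors of the C/EBP family, and the glycolytic enzyme GPI. Of its members 12 to 16 were called with 1 array left out, but the longest stretch without a gap was then 7 genes without any one of Pt1 arrays 1 and 2 and parental arrays 1 and 2, 4 without Pt1 array 3 and all 16 without parental array 3. Over 9 arrays 3 of the 16 were called, none of them adjacent. A run of equal length on chromosome 2 from SCLY to PPP1R7 had changes of -3.11 to -0.61 and includes HES6, the clock gene PER2, the histone deacetylase HDAC4 and GPR35, a receptor of the gut. Its longest stretch was 6 genes without Pt1 array 1, 5 without Pt1 array 3 and 12 to 16 without another array, and over 9 arrays 9 members were called, at most 3 of them adjacent. HDAC4 read 589, 609 and 629 on the Pt1 arrays and 1536, 1342 and 1216 on the parental arrays, and fell by 1.30 ± 0.15 (adjusted p = 6.14e-05). On chromosome 4 a run of 10 genes from ATP5ME to CTBP1 was lower, by -3.61 at the most in CPLX1, and kept a stretch of 9 to 10 with 1 array left out and of 4 over 9 arrays. The HOXD genes from HOXD11 to HOXD1 and the next gene, MTX2, a mitochondrial import protein, made a run of 8, although a bright MTX2 probe gave -0.20 and another, at background, gave 0.27, both with no call. Among higher runs, one of 7 genes on chromosome 8 reached from UQCRB to LAPTM4B and includes SDC2 and CPQ (3.89), and one of 6 on chromosome 14 reached from IFI27 to GSC, with IFI27L2 at 2.54. The run on chromosome 8 was cut to stretches of 2 without Pt1 array 2, Pt1 array 3 or parental array 1, while those of the HOXD genes and of chromosome 14 stayed whole with 1 array left out and had stretches of 3 over 9 arrays.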

How the data were processed

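Gene expression was measured in 3 samples each of IGROV-1/Pt1, parental IGROV-1 and IGROV-1/OHP. The authors deposited linear intensity values of 48803 probes, and BeadStudio is named in the submitters' processing notes. From the values, the arrays had been normalized to one distribution (sorted columns differed by at most 1.09%) and were not background subtracted. A further deposited table has 9 signal columns with detection p-values, whose names match no sample label, and it was not used. The background ceiling was instead set at the level that 2.5% of the intensities of 431 olfactory receptor probes exceeded.

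The deposited values were background corrected (normexp, offset 50) and log2 transformed. Of the probes, 28098 carried 1 gene symbol, and 13 with several and 20692 without were left out. Of 18852 genes, 6132 had several probes, of which the one with the highest mean log2 value over 9 arrays was used, and in 97 genes probes were called in both directions. Of the genes, 18826 matched the reference gene table (GRCh38.p14), used for names, order and promoters. Genes of the killer cell receptor family and LILRA3, some placed on alternate sequences, were left out of the order along chromosome 19.

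limma 3.58.1 in R 4.3.3 (lmFit and eBayes, 2-sided, 4 residual and 8.06 prior degrees of freedom) was fitted to the 6 Pt1 and parental arrays. OHP was left out because its array 2 stood apart. The threshold was a Benjamini-Hochberg adjusted p under 0.05. On data simulated for this contrast, with 50 of 18852 genes changed by each amount, 0%, 62%, 100% and 100% of log2 changes of 0.5, 1, 2 and 3 were recovered, with 4 false calls. In the data far more genes were called, 25.9%, and the adjusted p depends on the share of changed genes. The simulated recovery of small changes therefore does not carry over to the data.

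The comparison, the gene lists and the tests were chosen with earlier results of these data known. Named genes were the 30 that rose most and the 30 that fell most, given a level above the ceiling throughout the higher line, the 10 genes of highest mean intensity each way with at least 2-fold change, up to 4 called members of each list by size, members given for their lack of a call, and runs of at least 4 adjacent genes. Genes on the Y chromosome and those of sex-specific expression were left out, and 1 gene list is not reported here. Other motifs searched were the gamma-activated, AP-1, antioxidant and TEAD elements. Alternatives were fits over 9 or 8 arrays, no background correction, offset 16, a further quantile step, a filter on dim genes, the mean over probes, a replicate block and leaving out each array. Plots were made with matplotlib 3.10.9 in Python 3.11.15.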

Additional observations from a re-analysis of the deposited data

How the results depend on the processing

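The number of genes called (4882, with 2228 higher and 2654 lower) changed by more than 1.5 times in one of the alternatives, the fit over all 9 arrays, which gave 1863 genes, 783 higher and 1080 lower. That fit pools the spread with OHP, and without OHP array 2 the fit gave 4877 genes. With 1 array left out the calls ranged from 3520 to 5037, the higher genes from 1596 to 2251 and the lower genes from 1924 to 2786. No background correction gave 4982 calls, offset 16 gave 4258, a further quantile step gave 4879, a filter on genes at background gave 4864 and the mean over the probes of a gene gave 4630. With the replicate number as a block 5154 genes were called, 2363 higher and 2791 lower. Same-numbered Pt1 and parental arrays had correlated deviations of 0.18, 0.04 and -0.00 for numbers 1, 2 and 3, against -0.17 to 0.14 for other pairs. With 3 arrays a line these values cannot decide whether the numbers pair the samples. Of the 695 named genes, 286 lost their call in the fit over 9 arrays, 30 to 93 with 1 array left out, 49 with offset 16, 49 with the mean over probes and 7 under the block. When the mean over probes was used, 5 of them, each in a run of neighbouring genes, changed sign without a call: TCTN3 (0.015), MAP2K3 (0.25), NBPF3 (0.032), PCBP4 (0.12) and TBRG4 (0.22). Of 88 counts of list members, 49 moved by more than 1.5 times in the fit over 9 arrays. No detection p-value was tied to an array, so low levels are limited by the ceiling taken from olfactory receptor probes.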
